A study of Mus musculus with 12 samples.

Results

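The 10 genes of foamy and lipid-handling macrophages described here were measured in the aortas of CCN2fl/fl and CCN2SMCΔ mice: the receptors Trem2, Msr1 and Cd36, the membrane glycoproteins Cd68 and Gpnmb, the secreted proteins Spp1, Lgals3 and Apoe, and the lipid-handling proteins Lpl and Fabp5. The members were chosen by symbol, and each of the 10 names matched 1 row of the expression table, 10 of its 55092 features. RNA-Seq had been run on abdominal aortas of 12 male mice, 3 in each of 4 groups and 1 library per mouse. All mice carried floxed Ccn2 alleles and all received tamoxifen, 5 daily doses starting at 8 weeks of age and followed by 2 weeks without the drug. CCN2SMCΔ mice also carried a Myh11-Cre-ERT2 transgene, in which a smooth muscle promoter drives a tamoxifen-dependent recombinase, so that the deletion was directed at smooth muscle cells and other cells of the wall kept their alleles, whereas CCN2fl/fl mice had no Cre. Mini-osmotic pumps then delivered saline or angiotensin II (Ang II, 500 ng/kg/min), a peptide that raises blood pressure and injures the aortic wall, for 7 days. The groups are CFS (CCN2fl/fl with saline, mice 68, 69 and 70), CSS (CCN2SMCΔ with saline, mice 54, 55 and 56), CFA (CCN2fl/fl with Ang II, mice 71, 72 and 74) and CSA (CCN2SMCΔ with Ang II, mice 1, 2 and 3). Values are FPKM, fragments of a gene relative to its length and to a size set for the library. The deposited values had also been scaled across libraries. Levels can be set side by side between genes as well as between mice.

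Macrophages in a vessel wall take up lipoproteins and dying cells through scavenger receptors, break them down in lysosomes, store the cholesterol as droplets and hand it on to acceptors such as apolipoprotein E, and a cell loaded in this way is called a foam cell. TREM2 is a lipid-sensing receptor that signals through the adaptor TYROBP and marks lipid-associated macrophages of plaques and fat. Several of the genes are not restricted to macrophages: adipocytes make CD36 and LPL, fibroblasts and smooth muscle cells can make APOE, and osteopontin, the product of Spp1, is also made by smooth muscle and bone cells.

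The libraries held 14558574 to 23107768 fragments, recovered from the FPKM and the exon lengths. CSA mouse 3 stood apart from the other CSA mice, with a root mean square log2 difference of up to 1.21 over the tested genes against 0.505 between CSA mice 1 and 2. Markers of other tissues varied within groups as well: the summed FPKM of 6 skeletal muscle markers was 153 in CFS mouse 68 and 244 in CSS mouse 55, against at most 5.57 in the other libraries, and the sum of 10 adipocyte markers was 883 in CFS mouse 70, against at most 372 elsewhere. Markers of smooth muscle were present in every library, with a sum over 8 genes of 5517 to 10272 FPKM in CFS, CSS and CFA and of 814 to 963 in CSA. The targeted gene, Ccn2, had 709.5, 1108 and 480.1 FPKM in CFS, 436, 639.9 and 587 in CSS, 1013, 1105 and 564 in CFA, and 255, 331 and 399 in CSA. Its log2 fold change was -0.40 in CSS against CFS, whose ranges overlapped, and -1.41 in CSA against CFA (limma, adjusted p = 1 and 0.00622).

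All 10 genes are protein coding, and the annotation places them on GRCm38 at chromosome 17, 48346401 to 48354147, plus strand (Trem2, ENSMUSG00000023992), chromosome 8, 39581685 to 39642673, minus strand (Msr1, ENSMUSG00000025044), chromosome 5, 17781690 to 17888801, minus strand (Cd36, ENSMUSG00000002944), chromosome 11, 69664213 to 69666153, minus strand (Cd68, ENSMUSG00000018774) and chromosome 6, 49036546 to 49070929, plus strand (Gpnmb, ENSMUSG00000029816). The others lie at chromosome 5, 104435118 to 104441050, plus strand (Spp1, ENSMUSG00000029304), chromosome 14, 47367751 to 47386160, plus strand (Lgals3, ENSMUSG00000050335), chromosome 7, 19696109 to 19699188, minus strand (Apoe, ENSMUSG00000002985), chromosome 8, 68880491 to 68907448, plus strand (Lpl, ENSMUSG00000015568) and chromosome 3, 10012548 to 10016607, plus strand (Fabp5, ENSMUSG00000027533). Spp1 shares 18.8% of its exonic bases with the annotated transcript Gm42793 on the same strand, and the counting could have divided or dropped fragments there. The other 9 share none.

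Promoter windows of 300 bases, 250 before and 50 after a transcription start, were read from RefSeq (GRCm38.p6) for 7 of the 10 genes, 10 windows in all. Msr1, Lpl and Fabp5 had no entry. The windows of Spp1, Cd68 and Gpnmb are shown because the first 2 of these genes gained transcript in CSA and the last lost it. They were searched on both strands for the AP-1 string TGACTCA (whose reverse complement, also searched, is TGAGTCA, so that a site found on either strand is counted once), for the PU.1 strings GAGGAAGT and GAGGAACT, for the MITF and TFEB E-box in the form CACGTG or in the alternative form CATGTG, and for the TATA box as TATAAA. Capitals mark the matches, and each window runs 5′ to 3′ on the strand of its gene.
Spp1, chr5:104434861-104435160, plus strand: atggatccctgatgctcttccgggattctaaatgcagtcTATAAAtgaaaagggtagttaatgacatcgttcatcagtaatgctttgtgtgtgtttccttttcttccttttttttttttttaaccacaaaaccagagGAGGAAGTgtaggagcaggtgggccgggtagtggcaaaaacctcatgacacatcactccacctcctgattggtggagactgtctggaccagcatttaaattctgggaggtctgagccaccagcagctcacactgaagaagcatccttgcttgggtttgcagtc
Cd68, chr11:69666121-69666420, minus strand: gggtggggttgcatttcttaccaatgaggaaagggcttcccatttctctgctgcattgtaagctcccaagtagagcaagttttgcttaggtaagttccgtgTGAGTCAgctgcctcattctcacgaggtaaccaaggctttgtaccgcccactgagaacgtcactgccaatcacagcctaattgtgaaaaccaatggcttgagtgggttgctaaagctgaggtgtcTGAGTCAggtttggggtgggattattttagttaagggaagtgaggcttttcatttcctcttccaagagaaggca
Gpnmb, chr6:49036268-49036567, plus strand: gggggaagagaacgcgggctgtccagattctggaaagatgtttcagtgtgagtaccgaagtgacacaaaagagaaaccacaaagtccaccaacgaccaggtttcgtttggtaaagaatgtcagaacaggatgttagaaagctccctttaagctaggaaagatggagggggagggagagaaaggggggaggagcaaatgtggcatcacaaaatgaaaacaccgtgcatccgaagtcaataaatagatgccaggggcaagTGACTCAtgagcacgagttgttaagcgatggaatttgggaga

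The Spp1 window held 1 PU.1 match at positions -113 to -106, counted from the start, and 1 TATAAA at -211 to -206. The Cd68 window held 2 AP-1 matches, at -149 to -143 and -24 to -18, and the Gpnmb window 1 AP-1 match at positions 9 to 15 after the start. An alternative Apoe start, in the window chr7:19698572-19698871 on the minus strand, had 2 TATAAA matches on opposite strands that overlap each other, at -100 to -91. No match lay in the windows of Trem2, Lgals3 and Cd36, in the second Spp1 window or in the other 2 Apoe windows, and none of the 10 windows held either E-box string. Of the 32851 windows in the table, 5.20% held an AP-1 string, 4.76% a PU.1 string, 20.4% an E-box string and 13.6% TATAAA. A match is a run of letters only, and binding was not measured here.

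The comparison of CSA with CFA asks how the aorta under Ang II differs with deletion of Ccn2 in smooth muscle. The paper reported infrarenal aneurysms in nearly all mice with the deletion after this infusion. Among its controls, only a few had aneurysms, mild and in other segments. It describes the sequenced tissue as infrarenal. The groups may therefore differ in aneurysm as well as in genotype, and the part of aneurysm in the gene changes was not tested. In CSA, 6 of the 10 genes were upregulated, Spp1, Msr1, Trem2, Cd68, Lgals3 and Apoe, and 2 were downregulated, Gpnmb and Lpl, while Cd36 and Fabp5 did not pass the test. The test was limma on log2(FPKM + 0.1), and calls needed both a Benjamini-Hochberg adjusted p below 0.05 and a log2 fold change beyond 1.5 in either direction. It covered the 14676 genes that reached 1 FPKM in 3 or more libraries. Of all tested genes, 8.95% were called up and 8.27% down. All 10 members passed the filter on low values, but Trem2 and Msr1 passed only with the CSA libraries, where they were high, as did 8.22% of the tested genes. The median log2 fold change over the 10 was 2.20, against -0.04 over all tested genes. The CSA values lay above every CFA value for 7 members and below every CFA value for 2, as they did for 23.4% and 25.1% of all tested genes.

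**Figure D1:**
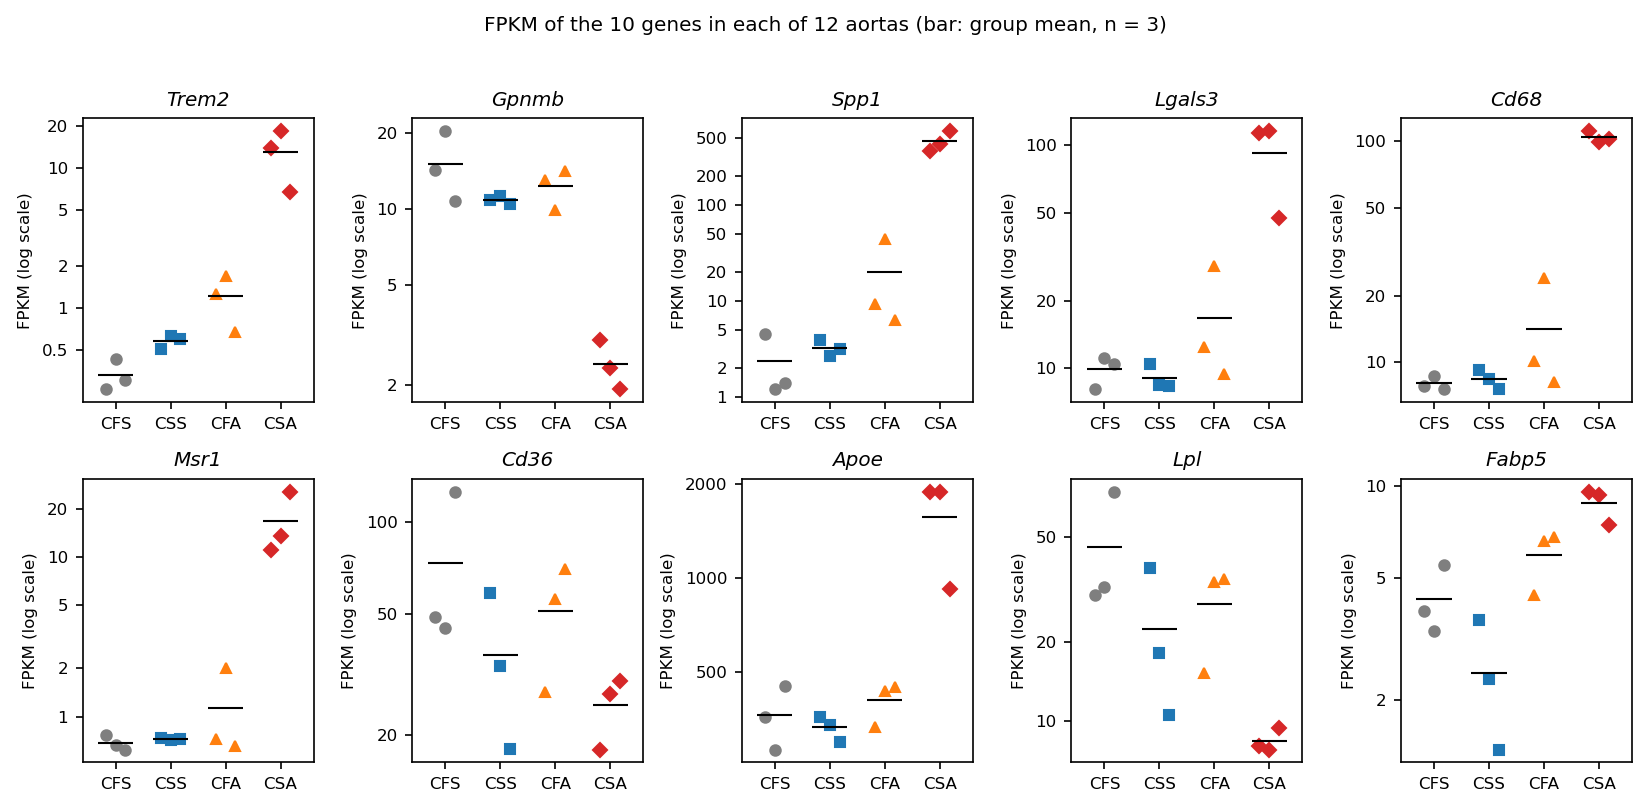
FPKM on a log scale (vertical axes, a separate scale for each gene) in the 12 aortas by group (horizontal axes), with 1 point per mouse and a bar at the mean of 3 mice. The 3 CSA points of Spp1, at 368 to 589 FPKM, sit above all others, those of Gpnmb, at 1.92 to 3.0, below all others, and those of Cd36 overlap with CSS and CFA.

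Among the receptors, Trem2 had 0.263, 0.432 and 0.305 FPKM in CFS, 0.511, 0.633 and 0.595 in CSS, 1.26, 1.70 and 0.668 in CFA, and 13.8, 18.2 and 6.68 in CSA. Every CSA library lay above every other library, and CSA mouse 3 was the lowest of its group. The mean rose from 1.21 ± 0.516 in CFA to 12.9 ± 5.83 in CSA (SD, n = 3 each), 10.7-fold, with a log2 fold change of 3.28 (standard error, SE, 0.39, limma adjusted p = 7.26e-05). These levels rest on 24 to 40 fragments per library in CFS and on 506 to 1914 in CSA.

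Msr1, the class A scavenger receptor that takes up modified LDL, had 0.767, 0.666 and 0.621 FPKM in CFS, 0.738, 0.714 and 0.724 in CSS, 0.724, 2.01 and 0.654 in CFA, and 10.96, 13.5 and 25.6 in CSA. Both saline groups and CFA mice 71 and 74 were at nearly one level, CFA mouse 72 was above it, and the CSA mice were higher again, here with mouse 3 on top. The ratio of the CSA to the CFA mean was 14.8, and the log2 fold change was 3.84 (SE 0.39, limma adjusted p = 2.54e-05).

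Cd36, the class B scavenger receptor and fatty acid transporter, behaved differently from Msr1. It had 48.8, 45.0 and 126 FPKM in CFS, 58.6, 33.6 and 18.0 in CSS, 27.8, 55.8 and 70.1 in CFA, and 18.0, 27.3 and 30.03 in CSA. CSA overlapped with CSS and CFA and lay below CFS, and the log2 fold change between CSA and CFA was -0.96 (95% confidence interval -2.09 to 0.17, limma adjusted p = 0.16). The widest spread was within CFS, where mouse 70, the library with the highest adipocyte markers, was far above the others.

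Cd68, a lysosomal glycoprotein used as the standard macrophage marker, had 7.83, 8.72 and 7.56 FPKM in CFS, 9.25, 8.37 and 7.57 in CSS, 10.2, 24.0 and 8.14 in CFA, and 111, 99.5 and 103 in CSA. The CSA mice were close to each other, mouse 3 included, and the mean rose 7.40-fold over CFA (log2 fold change 3.04, SE 0.31, limma adjusted p = 2.37e-05). In stained sections of such aortas, the paper found CD68 absent from most cells of the remodeled wall. Positive cells were sparse there and lay mainly at the adventitial edge. Those sections show protein, whereas the values here are transcript of whole tissue.

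Gpnmb, a transmembrane glycoprotein of lysosomes and phagosomes that is usually listed beside Trem2 in lipid-loaded macrophages, went the other way. It had 14.2, 20.2 and 10.8 FPKM in CFS, 10.8, 11.2 and 10.5 in CSS, 12.9, 9.90 and 14.1 in CFA, and 3.0, 2.33 and 1.92 in CSA. The 3 CSA mice were below all 9 others, and the mean fell from 12.3 ± 2.17 in CFA to 2.42 ± 0.544 in CSA (SD, n = 3 each), 5.09-fold, with a log2 fold change of -2.31 (SE 0.23, limma adjusted p = 2.26e-05). CFA mouse 72, which had the highest Cd68 and Msr1 of its group, had the lowest Gpnmb. The summed smooth muscle markers were also lowest in the CSA libraries, at 814 to 963 FPKM, but within CFA they were highest, at 8429.8 FPKM, in mouse 72, and their part in the fall of Gpnmb was not tested.

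Among the secreted proteins, Spp1, which encodes the matrix phosphoprotein and cytokine osteopontin, had 4.50, 1.20 and 1.41 FPKM in CFS, 3.92, 2.65 and 3.18 in CSS, 9.22, 44.6 and 6.30 in CFA, and 368, 430.3 and 589 in CSA. Each CFA mouse was above each CFS mouse, and the lowest CSA mouse was above the highest CFA mouse by a wide margin. The mean rose 23.1-fold from CFA to CSA, with a log2 fold change of 5.03 (SE 0.66, limma adjusted p = 1.32e-04), the largest among the 10 genes. In the order of the members by mean FPKM, Spp1 moved from rank 8 in CFS to rank 2 in CSA.

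Lgals3, encoding galectin-3, a β-galactoside-binding lectin of phagocytes, had 8.07, 11.2 and 10.5 FPKM in CFS, 10.5, 8.39 and 8.36 in CSS, 12.5, 28.8 and 9.42 in CFA, and 114, 116 and 47.5 in CSA. CSA mouse 3 was lower than the other CSA mice but above every CFA mouse, and the log2 fold change was 2.50 (SE 0.41, limma adjusted p = 6.50e-04).

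Apoe, whose product carries cholesterol away from cells, was the most abundant member in every group. It had 359, 282 and 451 FPKM in CFS, 360.1, 338 and 298 in CSS, 332, 435 and 449 in CFA, and 1893, 1896 and 921 in CSA. The first 3 groups overlapped, the CSA mice were above them with mouse 3 lowest, and the log2 fold change to CFA was 1.89 (SE 0.28, limma adjusted p = 2.95e-04).

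Lpl, the lipase that frees fatty acids from circulating triglycerides, had 30.1, 32.3 and 74.5 FPKM in CFS, 38.2, 18.1 and 10.5 in CSS, 15.1, 33.7 and 34.6 in CFA, and 8.03, 7.75 and 9.37 in CSA. The CSA mice were the lowest of the 12 and close together, and Lpl fell by 1.63 on the log2 scale from CFA to CSA (SE 0.49, limma adjusted p = 0.0209). This call was the least stable of the 8: it was lost without CFA mouse 72 (adjusted p = 0.0695), without CFA mouse 74 (0.0780) and without CSA mouse 2 (0.0534), and with weights per library or FPKM scaled to library totals the log2 fold change was -1.33 or -1.47, short of the fold limit.

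Fabp5, a cytosolic carrier of fatty acids, had 3.91, 3.37 and 5.54 FPKM in CFS, 3.65, 2.34 and 1.38 in CSS, 4.43, 6.61 and 6.81 in CFA, and 9.61, 9.40 and 7.46 in CSA. The CSA mice lay above the CFA mice, but by little, with a log2 fold change of 0.58 (95% confidence interval -0.12 to 1.28, limma adjusted p = 0.172). Without CSA mouse 3, 6 members were still called up and 2 down, with log2 fold changes of 3.69 for Trem2, 2.92 for Lgals3, 2.24 for Apoe and 3.48 for Msr1. Without CFA mouse 72, the ratio of the CSA to the CFA mean went from 23.1 to 59.6 for Spp1, from 14.8 to 24.2 for Msr1, from 7.40 to 11.4 for Cd68 and from 5.47 to 8.42 for Lgals3, with log2 fold changes of 5.88, 4.31, 3.50 and 2.97. These aortas were sequenced whole, so a higher or lower value may come from more or fewer cells of a type or from more or less RNA per cell, and the 2 cannot be told apart.

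**Figure D2:**
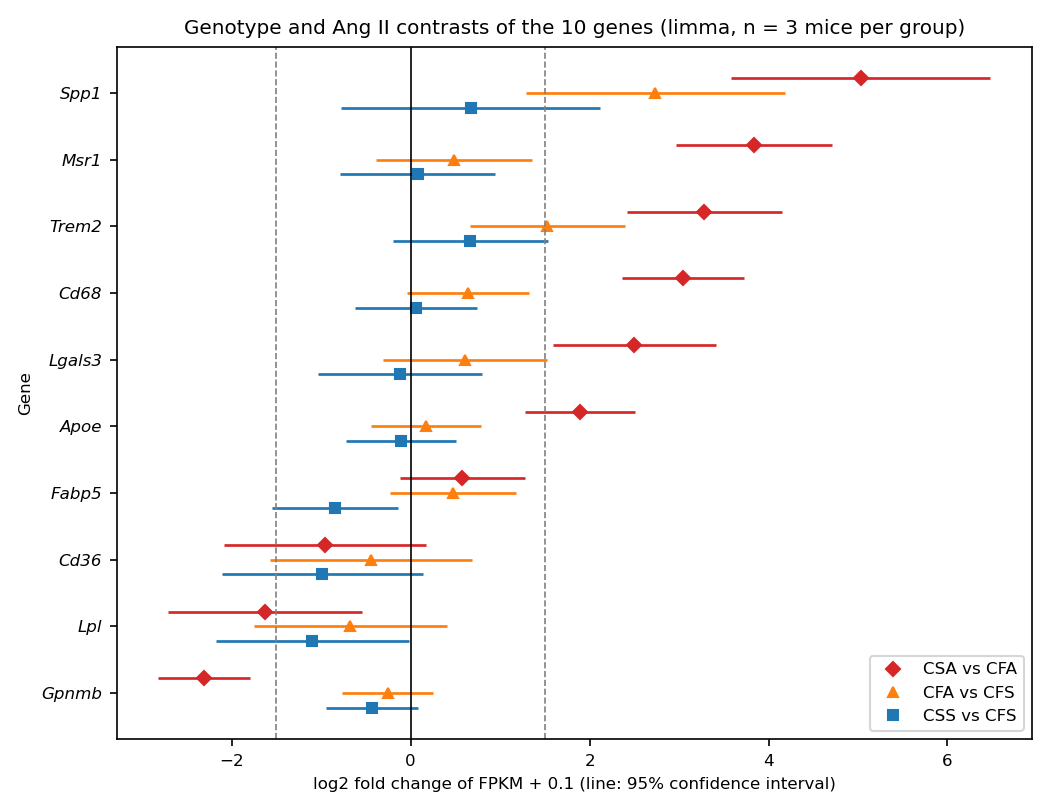
log2 fold change of FPKM + 0.1 (horizontal axis) of each gene (vertical axis) in CSA against CFA (diamonds), CFA against CFS (triangles) and CSS against CFS (squares), with lines for the 95% confidence interval and dashed lines at the fold limit of 1.5. The CSA intervals of Spp1, Msr1, Trem2, Cd68, Lgals3 and Apoe lie right of 0 and those of Gpnmb and Lpl left of it.

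Under saline, CSS against CFS, none of the 10 genes passed the test in limma, and 2 had an unadjusted p under 0.05, Fabp5 and Lpl. Of all tested genes, 0.00681% were called up and 0.00681% down, so the comparison gave almost no calls anywhere. Trem2 was the only member whose groups did not overlap, at 0.511 to 0.633 FPKM in CSS above 0.263 to 0.432 in CFS (log2 fold change 0.66, limma adjusted p = 0.918). Of all tested genes, 11.1% had every CSS mouse above every CFS mouse and 9.31% every one below, so 1 of 10 members is near the background. The 3 lipid uptake genes had the most negative log2 fold changes, -1.10 for Lpl, -0.99 for Cd36 and -0.85 for Fabp5, and the mean log2 level of the adipocyte markers differed by -1.26 between the same groups. For Cd68, Msr1, Lgals3 and Apoe the values were between -0.12 and 0.08, with 95% confidence intervals from -1.03 to 0.95 at the widest.

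Ang II in CCN2fl/fl mice, CFA against CFS, also gave no calls among the members, and 2 had an unadjusted p under 0.05 in limma, Spp1 and Trem2. Over all tested genes, 0.0204% were called up and 0.00681% down. Spp1 and Trem2 were the only members whose CFA mice were all above the CFS mice, with log2 fold changes of 2.74 (95% confidence interval 1.29 to 4.18, limma adjusted p = 0.165) and 1.53 (95% confidence interval 0.66 to 2.40, adjusted p = 0.188). Of all tested genes 9.44% had every CFA mouse above every CFS mouse, against these 2 of 10 members. Spp1 was called without CFA mouse 74 (log2 fold change 3.29, limma adjusted p = 0.0496), and Trem2 with weights per library (1.64, adjusted p = 0.0131). CFA mouse 72 set much of the spread: against the mean of the other CFA mice it was higher by 2.53 on the log2 scale for Spp1, 1.42 for Msr1, 1.40 for Lgals3 and 1.39 for Cd68, while the mean of 12 macrophage markers was higher by 1.09 in the same library. The comparison shares its CFA mice with that of CSA and CFA.

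In CCN2SMCΔ mice, Ang II against saline (CSA against CSS) raised 7 of the 10 genes and lowered 1, in a background of 10.9% of tested genes up and 9.36% down. Spp1 rose by 7.10 on the log2 scale (limma adjusted p = 8.82e-06), from 3.25 ± 0.636 to 463 ± 114 FPKM (SD, n = 3 each). Fabp5 was called here, from 2.46 ± 1.14 to 8.82 ± 1.18 FPKM (SD, n = 3 each), with a log2 fold change of 1.90 (limma adjusted p = 5.67e-04). Lpl was not (-1.20, adjusted p = 0.0657), although its CSA mice were all below its CSS mice, and it was called without CSS mouse 56 (-1.64, limma adjusted p = 0.0218). Cd36 overlapped between the groups (-0.42, adjusted p = 0.527).

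Whether the effect of the genotype depended on the treatment was tested as an interaction, (CSA - CFA) - (CSS - CFS), for which 7.89% of tested genes were called up and 7.31% down. It was called for 7 members in limma: Spp1 (4.36, adjusted p = 0.00562), Msr1 (3.76, adjusted p = 7.42e-04), Cd68 (2.98, adjusted p = 6.84e-04), Lgals3 (2.62, adjusted p = 0.00744), Trem2 (2.62, adjusted p = 0.00559) and Apoe (2.0, adjusted p = 0.00370) upwards, and Gpnmb (-1.88, adjusted p = 0.00193) downwards. Fabp5 had an interaction of 1.42 (adjusted p = 0.0377), short of the fold limit, and was called with weights per library, with scaling to library totals, and without CFS mouse 69, CSS mouse 54, CFA mouse 72 or CSA mouse 3 (1.51 to 1.77). For Lpl and Cd36 it was -0.53 and 0.03 (95% confidence intervals -2.05 to 1.0 and -1.57 to 1.62), so no difference between the genotype effects was detectable for these genes at 3 mice per group.

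Macrophage markers rose in the same libraries, and the members were set against them. Of 12 monocyte and macrophage markers, 11 were upregulated in CSA against CFA, Itgam among them passing the filter only with the CSA libraries, and their summed FPKM was 2564 to 2878 in CSA against 370 to 772 in CFA and 299 to 396 in the saline groups. Fcgr1, a high-affinity IgG receptor, rose from 2.63 ± 2.67 to 76.0 ± 6.09 FPKM, Aif1 (IBA1) from 2.59 ± 1.06 to 48.4 ± 18.1, and Itgam (CD11b) from 1.61 ± 1.09 to 18.8 ± 4.64 (SD, n = 3 each), with log2 fold changes of 5.24, 4.20 and 3.61. Mertk, an efferocytosis receptor, was the exception, at a log2 fold change of -0.73. The mean log2 level of the 12 markers was 2.78 higher in CSA than in CFA.

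Taken relative to that mean in each library, the members fell into 3 sets. Spp1 and Msr1 exceeded it, with differences between CSA and CFA of 2.25 and 1.06 beyond the markers and no overlap between the groups. Trem2, Cd68, Lgals3 and Apoe had differences of 0.50, 0.26, -0.28 and -0.89, with overlapping groups. Fabp5, Cd36, Lpl and Gpnmb had values of -2.21, -3.74, -4.41 and -5.09, with every CSA mouse below every CFA mouse. The marker mean rose by 2.78 between these groups, so a gene with an unchanged level also comes out negative on this scale. In FPKM, the CSA mice of Fabp5 lay above the CFA mice, and those of Cd36 overlapped with them. The share of all tested genes without overlap on this scale was not computed. The two-sided exact permutation p was 0.1 for the 6 members without overlap, the smallest that 3 against 3 mice can give, so these values are a description. With the median of the markers in place of their mean, Lgals3 turned from -0.28 to 0.22, Cd68 moved to 0.76 and Fabp5 to -1.70, and with a pseudocount of 1 the excess of Msr1 shrank to 0.41.

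**Figure D3:**
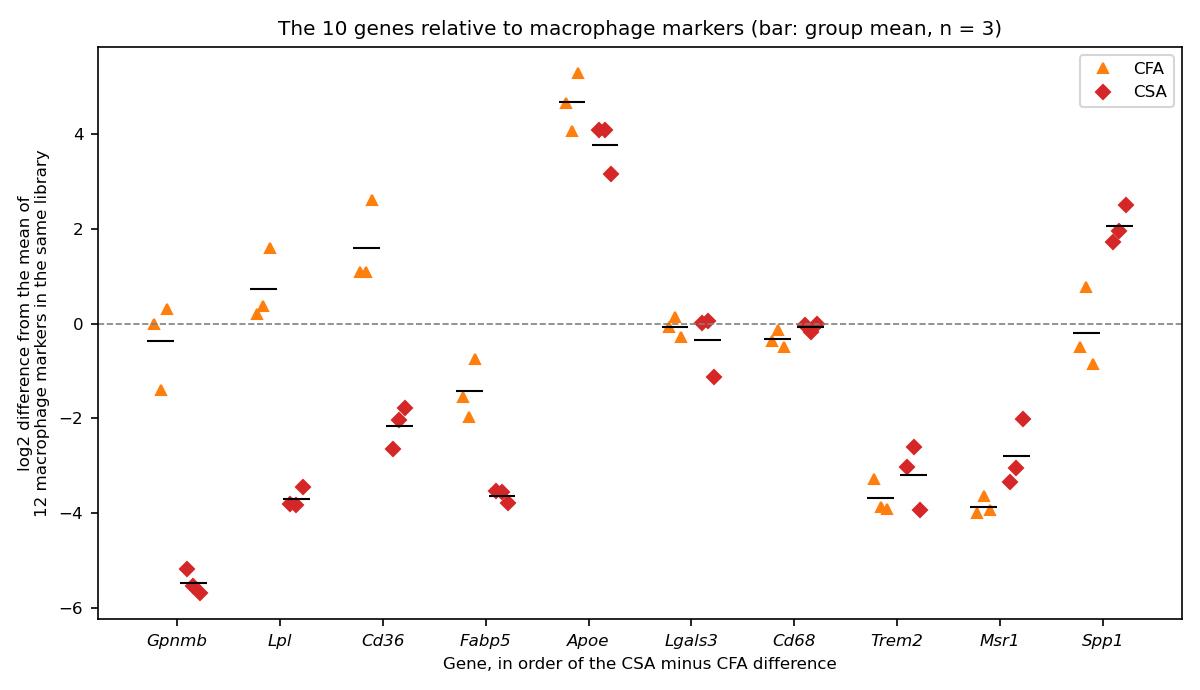
log2(FPKM + 0.1) of each gene minus the mean of 12 macrophage markers in the same library (vertical axis) for the genes in order of their difference (horizontal axis), in CFA (triangles) and CSA (diamonds), with 1 point per mouse and bars at the means of 3 mice. Gpnmb, Lpl, Cd36 and Fabp5 in CSA lie below their CFA values, while Spp1 lies above them.

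Lpl and Cd36 followed the adipocyte markers through the saline and CFA libraries. Their order from highest to lowest began with CFS mouse 70 for both genes, as did those of Adipoq, which encodes the adipocyte hormone adiponectin, and of Fabp4, the fatty acid carrier of fat cells. Of 10 adipocyte markers, 7 were downregulated in CSA against CFA and none was upregulated, and their sum was 21.4 to 72.7 FPKM in CSA against 129 to 341 in CFA, 158 to 372 in CSS and 270.5 to 883 in CFS. Cidea, a lipid droplet protein, fell from 6.91 ± 0.623 to 0.18 ± 0.158 FPKM and Pck1, an enzyme of glyceroneogenesis, from 33.8 ± 25.2 to 1.28 ± 0.581 (SD, n = 3 each). The call of Pck1 was lost with weights per library (limma adjusted p = 0.0515) and without CFA mouse 72 (0.0501) or 74 (0.0560). Relative to the mean log2 level of these markers, chosen after the data were seen, the difference between CSA and CFA was 2.03 for Cd36 and 1.36 for Lpl, both without overlap between the groups, and 0.27 and 0.16 between CSS and CFS. The marker mean itself changed by -2.99 from CFA to CSA, so a gene with an unchanged level also comes out higher on this scale. Every member except Gpnmb had all CSA mice above all CFA mice there, so the separation is not particular to Cd36 and Lpl. The part of fat around the vessel in the values of Lpl and Cd36 was not tested.

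**Figure D4:**
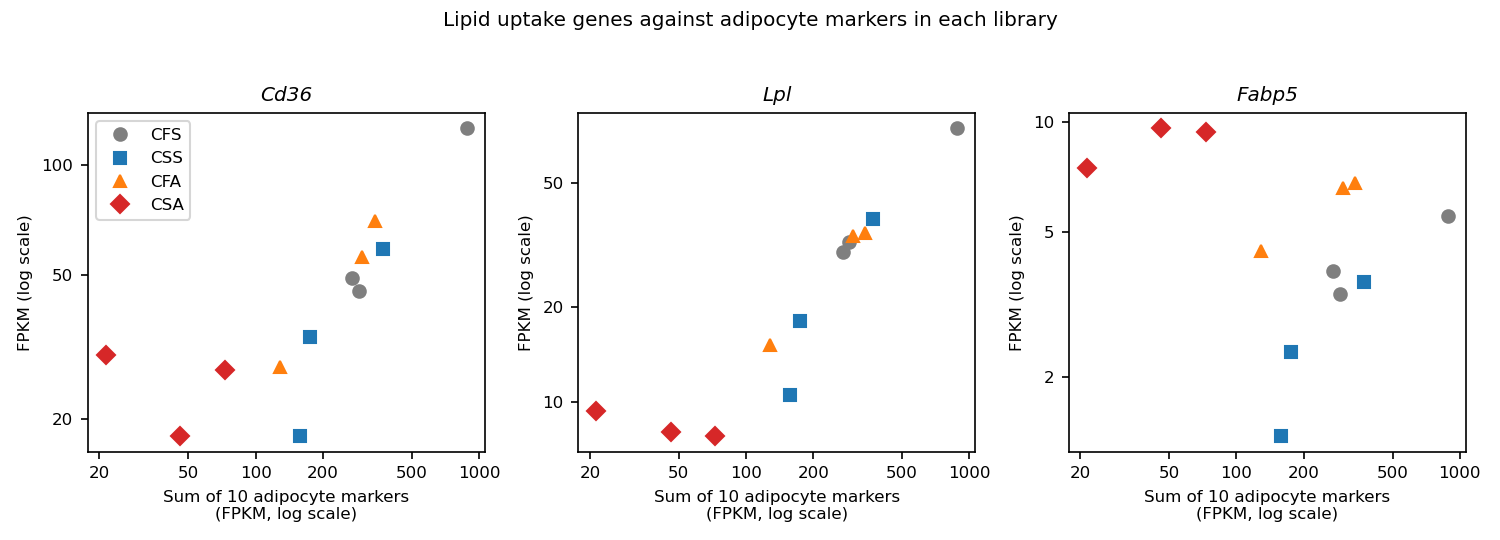
FPKM of Cd36, Lpl and Fabp5 (vertical axes, log scale) against the summed FPKM of 10 adipocyte markers (horizontal axes, log scale), 1 point per library, with groups by symbol. CFS mouse 70, at a marker sum of 883, is the highest point for Cd36 and Lpl, while the CSA libraries, at sums of 21.4 to 72.7, have the highest Fabp5.

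The nearest genes by profile over the 12 libraries differed between the members. Each gene was centred on its mean log2 value, and nearness was measured as the root mean square of the remaining differences, with lower values for closer profiles. Cd68 was closest to the leukocyte genes Nckap1l (0.14) and Laptm5 (0.15), Lgals3 to Fermt3 (0.23) and Pik3cd (0.27), Msr1 to Slfn8 (0.19) and Fcer1g (0.23), Trem2 to Il10ra (0.31) and Ccdc88b (0.33), and Apoe to Vsir and Stxbp2 (0.18 each). Spp1 had no close match, with Ifit1bl1 (0.62) and Trem1 (0.70) nearest. Gpnmb was nearest to Prdm6, a transcriptional regulator of smooth muscle, and Ndrg2 (0.20 each), Cd36 to Fabp4 (0.19) and Ankef1 (0.27), Lpl to Ankef1 (0.23) and Acvr1c (0.27), and Fabp5 to Arhgap28 (0.33) and Lamb1 (0.36). Among the members themselves, the closest pairs were Lgals3 with Cd68 (0.384) and Cd36 with Lpl (0.389), and Gpnmb and Spp1 were the farthest apart (4.13).

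Of 12 genes of the family, its adaptors and its downstream signalling proteins, 11 were tested and 10 were upregulated in CSA against CFA, none downregulated. Trem1, Trem3, Treml2, Treml4 and Hcst, 5 of these 10, passed the filter only with the CSA libraries, and 6 genes passed it without them. When CSA mouse 1 was left out, 6 of 8 tested genes rose, and without CSA mouse 2 or 3 it was 7 of 8. In these fits, the tested genes other than the 6 that passed without CSA still depended on the remaining CSA libraries. Tyrobp, the TREM2 adaptor, had a log2 fold change of 3.13 (limma adjusted p = 9.60e-05), and Vav1, a guanine nucleotide exchange factor, rose from 2.0 ± 1.02 to 27.5 ± 4.58 FPKM (SD, n = 3 each). Trem1 and Trem3, receptors of neutrophils and monocytes, rose by 4.90 and 3.80 on the log2 scale. Of 9 neutrophil markers 8 were tested and all 8 rose, 5 of them genes that passed the filter only with the CSA libraries, with a sum of 525 to 572 FPKM in CSA against 11.2 to 28.0 in CFA. When CSA mouse 1, 2 or 3 was left out, 5 of these markers were tested and all 5 rose. Only 3 markers passed the filter without any CSA library, so the calls of the others stayed bound to the filter. The part of the neutrophil markers in the values of the TREM list was not tested.

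The other genes of lipid-associated macrophages moved less evenly. Of 15 tested, 4 were upregulated, Cst7 and Itgax among them passing the filter only with the CSA libraries, and none was downregulated, with a median of 0.90: Clec7a (Dectin-1) rose from 2.97 ± 1.78 to 44.4 ± 18.8 FPKM, Itgax (CD11c) from 1.5 ± 1.29 to 16.6 ± 3.0, the cystatin gene Cst7 from 0.143 ± 0.127 to 2.35 ± 0.864 and Plin2, the coat protein of lipid droplets, from 16.0 ± 2.40 to 58.3 ± 10.8 (SD, n = 3 each). Among 12 other scavenger and lipoprotein receptors, 11 tested, 2 rose and 1 fell, with a median of 0.09. These were Olr1 (LOX-1, log2 fold change 3.67, past the filter only with the CSA libraries), Cxcl16 (a chemokine that also binds oxidized LDL, 2.67) and Vldlr, the VLDL receptor, at -3.72.

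In cholesterol efflux and esterification, 3 of 15 tested genes were upregulated and none downregulated, with a median of 0.80. The number called up was 2 with a pseudocount of 1, 4 with weights per library and 5 with scaling to library totals. Ch25h, cholesterol 25-hydroxylase, which passed the filter only with the CSA libraries, rose by 4.83 on the log2 scale, the exporter Abcg1 by 2.73 and the cholesteryl ester hydrolase Nceh1 by 1.56, the last short of the limit with a pseudocount of 1 (1.28) and without CSA mouse 3 (1.46). None of 13 tested genes of cholesterol synthesis was called in limma, with 5 at an unadjusted p under 0.05, and Lss, lanosterol synthase, had a log2 fold change of -1.25 (adjusted p = 8.25e-04) under the fold limit and was called with weights per library (-1.55, adjusted p = 2.85e-05). Of 19 genes of fatty acid release, uptake, binding and storage, 1 rose, Plin2, and 3 fell, among them Dgat2, which makes triglycerides (-2.52), and the muscle-type carrier Fabp3 (-1.65). With weights per library or without CSA mouse 3, 2 rose and 2 fell, and without CFA mouse 74, 1 rose and 2 fell. With a pseudocount of 1 or scaling to library totals 1 fell instead of 3, and Fabp3 was short of the fold limit in both settings and without CFA mouse 71 or CSA mouse 3 (-1.496 to -1.28).

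For the ligands Spp1 and Lgals3, the partners were examined too. Of 9 osteopontin receptors, Cd44 rose from 8.13 ± 3.84 to 33.0 ± 5.36 FPKM, while the integrin chains Itga8, Itga9 and Itgb3 fell, Itga8 from 263 ± 20.99 to 17.6 ± 2.98 and Itga9 from 108 ± 17.0 to 16.8 ± 0.992 (SD, n = 3 each). With FPKM rescaled to equal sums or to library totals, and also without CSA mouse 2, the receptors called up were 2 instead of 1. All 8 smooth muscle markers fell in the same comparison, Myh11 from 718 ± 19.8 to 39.9 ± 5.86 FPKM, and their part in the integrin values was not tested. Of 7 tested galectins and binding proteins, Lgals3bp and Lgals9 rose by 2.77 and 1.78 on the log2 scale, and Lgals12, a galectin of fat cells, fell by 2.40, a call that was lost with a pseudocount of 1, with weights per library, and without CFA mouse 72 or 74 or CSA mouse 2 or 3 (limma adjusted p = 0.0546 to 0.0983). Of 8 tested transcription factors of macrophages and lysosomes, Spi1 (PU.1) rose from 6.36 ± 3.28 to 58.3 ± 9.67 FPKM (SD, n = 3 each), and none fell. Osteoclasts express Spp1 and Gpnmb too, and of 7 osteoclast markers only Acp5 and Ctsk were above the filter, with log2 fold changes of 0.59 and 0.42 that were not called, although every CSA mouse was above every CFA mouse for Ctsk. The other 5 had group means of at most 0.578 FPKM, from Calcr, the calcitonin receptor gene, at up to 0.00392, to Ocstamp, a gene of osteoclast fusion, with means of 0.0857 in CFA and 0.578 in CSA and no overlap, and with no filter on low values 1 of the 7 markers was called up.

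**Figure D5:**
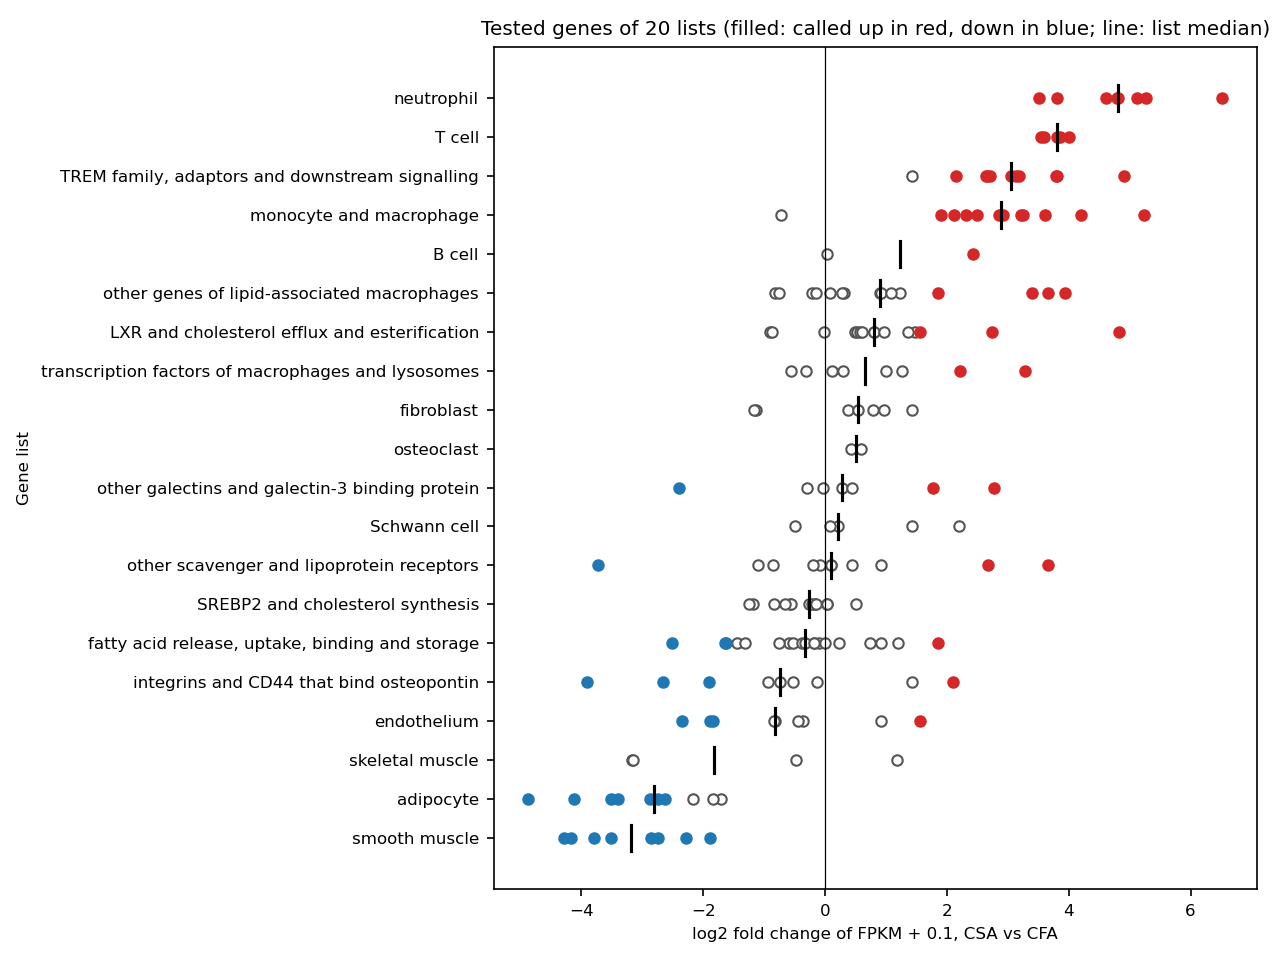
log2 fold change of FPKM + 0.1 in CSA against CFA (horizontal axis) of each tested gene of 20 lists (vertical axis), filled where called and open where not, with a line at each list's median. All tested neutrophil markers lie right of 0 and all smooth muscle markers left of it, whereas the genes of lipid-associated macrophages lie on both sides.

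The remaining marker lists moved as follows between CFA and CSA. The 5 T cell markers and 2 tested B cell markers passed the filter only with the CSA libraries, so that their calls, 5 and 1 upwards, were bound to the filter. Of 9 endothelial markers, 1 rose and 3 fell, and without CFA mouse 74 none rose and 1 fell. Without CFA mouse 71 or CSA mouse 2, 1 of them rose and 1 fell, and without CSA mouse 1, 1 rose and 2 fell, while without CSA mouse 3 none rose and 3 fell. None of the 7 fibroblast, 5 Schwann cell and 4 tested skeletal muscle markers was called in limma, while 5, 3 and 0 of them had an unadjusted p under 0.05. A fibroblast marker was called up with FPKM rescaled to equal sums or to library totals and without CFA mouse 71 or CSA mouse 1. A Schwann cell marker was called up with scaling to library totals, weights per library or the compared groups alone in the fit, and without CFA mouse 72 or CSA mouse 3. With the compared groups alone, 2 skeletal muscle markers were called down. In CSS against CFS, and in CFA against CFS, no gene of any of the 20 lists was called in limma, and 14 and 25 of the 177 different list genes tested had an unadjusted p under 0.05, 7.91% and 14.1% of them against 6.30% and 9.42% of all tested genes.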

How the data were processed

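Poly(A) RNA of 12 abdominal aortas, 1 library per mouse, was sequenced by the authors on the NovaSeq platform with paired reads of 150 bases and 6 G of raw data for each sample. The submitters' processing notes name the mm10 build, HISAT2 2.0.5, StringTie 1.3.3b and featureCounts 1.5.0-p3, and the strand setting of the counting is not given in the sources used here. The authors deposited FPKM with 1 value per gene and mouse, unpooled, and 0 columns were left unused. Their table of DEG-Seq comparisons was not used here. With exon lengths from GENCODE M21 (GRCm38), 98.1% to 98.5% of values under 100 fragments were within 0.05 of a whole number, and the deposited values had been scaled across libraries, as seen from median log ratios to the gene mean that were equal in all 12.

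From these values, log2(FPKM + 0.1) was fitted in R 4.3.3 with limma 3.58.1 (lmFit with 1 coefficient per group, eBayes with trend and robust), as described with the results. A fold change on this scale understates the change of low genes. P-values concern the spread between separate mice. The method was tested on simulated data. The text names the 10 members, Ccn2, of each list the 3 genes with the largest change between CSA and CFA, list genes tied to a member, and 2 nearest profiles per member. A single list gene that the rule would name is left out and not reported here. The members and the 20 lists (194 different genes) were chosen with earlier results of these data known. Alternatives were a pseudocount of 1, other filters and scalings, other eBayes settings, weights per library, fits of the compared groups alone, no fold limit, another summary of the macrophage markers, and leaving out each mouse. Scaling to library totals and the adipocyte reference were chosen after seeing the data. Figures were drawn with matplotlib in Python 3.11.15.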

Additional observations from a re-analysis of the deposited data

Results flagged for a closer look

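The genotype effect under Ang II differed from that under saline, by limma's interaction test, for 7 of the 10 genes. On the log2 scale the difference was 4.36 for Spp1, 3.76 for Msr1, 2.98 for Cd68, 2.62 for Lgals3, 2.62 for Trem2, 2.0 for Apoe and -1.88 for Gpnmb, the only one of the 7 that was negative. Leaving out each mouse in turn gave 3.79 to 5.21 for Spp1, 3.41 to 4.24 for Msr1, 2.67 to 3.44 for Cd68 and -2.11 to -1.66 for Gpnmb, and the calls of these genes were kept in all 12 fits.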

How the results depend on the processing

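With 3 mice per group, the intervals of single genes are wide. In CSA against CFA, 8 members were called, and 6 to 8 under the alternatives, 6 with a mean FPKM of at least 5, where Trem2 and Msr1 were not tested. In CFA against CFS no member was called, against 1 with weights per library and 0 to 1 when leaving out each mouse. In the fits without 1 mouse, the direction changed for values near 0 that were not called: Cd68 (-0.0115 to 0.131) and Apoe (-0.281 to 0.0570) in CSS against CFS, Cd36 (-0.725 to 0.0274) and Apoe (-0.00191 to 0.34) in CFA against CFS, Cd36 in the interaction (-0.449 to 0.443) and Cd79a, a B cell marker, in CSA against CFA (-0.80 to 1.51), and the cause was not tested. The count of all tested genes called was 2528 in CSA against CFA, 1601 with a pseudocount of 1, 1095 with a mean FPKM of at least 5 and 5978 without a fold limit. It was 2977 in CSA against CSS (1918, 1272 and 6781 with the same settings) and 2231 for the interaction (1078 with the mean filter, 3877 without a fold limit). In CFA against CFS it was 4, with 147 under weights per library and 124 without CFA mouse 74, and in CSS against CFS 2, with 35 under weights per library. Scaling to library totals moved the median log2 fold change of all genes in CSA against CFA from -0.04 to 0.11, and 6 members stayed upregulated and Gpnmb downregulated. No paired analysis was possible because the labels give no mouse number shared between groups.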
